A study of Mus musculus with 13 samples.

Results

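2300003K06Rik, Cttnbp2 and Cryba4 are 3 protein-coding mouse genes of unrelated kinds whose transcripts were lower in tongue epithelium that expressed the histone mutant H3K36M than in control epithelium. They were taken by name from the 24972 genes of the authors' deposited table after their fold changes were known. Those fold changes are therefore given as a description and were not tested here. The 3 were chosen by their fold change and adjusted p in the comparison of H3K36M with control. Bulk polyA RNA was sequenced from 13 samples of tongue epithelia. The 6 H3K36M samples had the genotype Krt14-Cre(+); LSL-H3K36M, a Cre transgene together with the allele from which Cre releases the mutant histone. The 7 control samples had the genotype Krt14-Cre(-); LSL-H3K36M, so they held the same allele without Cre. The Krt14 promoter drives expression in basal keratinocytes. Cre and the mutant histone were always present together, so their effects cannot be told apart, and the labels used here give no age and tie no sample to a named animal.

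Histone H3 with methionine in place of lysine 36 blocks the enzymes that methylate this lysine, a mark spread over active genes and the regions between them. 2300003K06Rik is known by a clone name and lies within the cluster of keratin-associated genes, whose small proteins are rich in cysteine and cross-link hard keratins in hair and in the horny filiform papillae of the tongue. Cttnbp2 encodes cortactin-binding protein 2, known from neurons, where it binds the actin regulator cortactin, microtubules and the striatin-phosphatase complex. Cryba4 encodes beta-A4 crystallin, a structural protein of the eye lens. The question put to the data was how transcript levels of this epithelium differ once the mutant histone is made.

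The sequences that set these genes apart come first. 2300003K06Rik (ENSMUSG00000078257.2) is a gene of 1 exon and 1265 bases on the minus strand of chromosome 11, from 99836802 to 99838066 (GRCm38, GENCODE M21). Its coding sequence held TGC or TGT, the codons of cysteine, at 80 of 262 codons, or 30.5%, a share above that of 99.8% of 15965 coding genes, whose median was 1.97%. The first 150 coding bases, at chr11:99837866-99838015 on the minus strand of GRCm38, are printed because they show this repeat, with the TGC and TGT codons of the reading frame in capitals, 18 of 50 codons.
2300003K06Rik coding start: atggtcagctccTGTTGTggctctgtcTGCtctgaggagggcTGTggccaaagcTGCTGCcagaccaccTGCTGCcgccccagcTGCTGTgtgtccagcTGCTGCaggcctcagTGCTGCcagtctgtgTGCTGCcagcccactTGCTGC
In the 10 tested genes that start within 50 kb of it, the same codons made up 31.7% (Krtap4-16) to 38.5% (Gm11596) of the coding sequence, against 2.43% in Cttnbp2 and 2.04% in Cryba4.

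The 250 bases before the start of 2300003K06Rik (RefSeq, GRCm38.p6, chr11:99838067-99838316, minus strand) are printed because its neighbours share a stretch of them. The capitals mark GGGTATAAAAG, which begins 40 bases before the start and holds the TATA-box core TATAAA.
2300003K06Rik upstream: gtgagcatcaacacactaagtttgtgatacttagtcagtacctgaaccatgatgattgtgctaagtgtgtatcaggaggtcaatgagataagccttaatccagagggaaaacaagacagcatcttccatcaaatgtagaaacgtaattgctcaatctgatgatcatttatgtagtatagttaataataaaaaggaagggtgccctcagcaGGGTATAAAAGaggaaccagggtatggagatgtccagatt
Of 32851 promoters searched on both strands over the same length, TATAAA occurred in 12.4% and GGGTATAAAAG in 0.0791%, which is 26 promoters. The longer run TCAGCAGGGTATAAAAG occurred in 9, namely 2300003K06Rik and 8 genes that start within 500 kb of it. Stretches of 39 bases around the element are set out for 2300003K06Rik (chr11:99838082-99838120), 2 of the neighbours that hold the longer run (Gm11564, chr11:99815673-99815711, and Krtap4-13, chr11:99809902-99809940) and 1 that holds the element without it (Krtap4-16, chr11:99851639-99851677), all on the minus strand, with the element in capitals.
2300003K06Rik: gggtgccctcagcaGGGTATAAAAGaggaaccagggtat
Gm11564: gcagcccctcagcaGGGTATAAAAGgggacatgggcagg
Krtap4-13: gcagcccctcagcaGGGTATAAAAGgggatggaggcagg
Krtap4-16: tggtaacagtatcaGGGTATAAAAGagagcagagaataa
These motifs were chosen after the promoters and the fold changes had been seen, and a match is a description of letters only.

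Cttnbp2 (ENSMUSG00000000416.16) spans 148366 bases on the minus strand of chromosome 6, from 18366478 to 18514843 (GRCm38), with 9 transcripts in GENCODE M21. The 250 bases before its RefSeq start held 23 CpG dinucleotides, more than 86.7% of promoters (median 6), had a GC content of 66.8% and held no TATAAA. The 30 bases with the most CpG in that window (chr6:18514907-18514936, minus strand, GRCm38.p6) are shown with CG in capitals.
Cttnbp2 upstream: gCGggtgggCGgggCGcCGCGtctccagCG
Cryba4 (ENSMUSG00000066975.12) lies on the minus strand of chromosome 5, from 112246493 to 112252518 (GRCm38), with 3 transcripts. Its 250 upstream bases held no CpG and no TATAAA, and held TGCTGA at 182, 135 and 77 bases before the start. Only exact TATAAA was searched, and the window held TATAAG, which differs in its last base, close to the start. TGCTGA is the core that large MAF transcription factors bind, and lens crystallin promoters are known for it. It occurred in 16.1% of the 32851 promoters and at least 3 times in 0.146%, both strands counted. The upstream bases of 2300003K06Rik hold it once on the other strand, as TCAGCA, inside the longer run shared with 8 neighbours. The 3 copies are shown with TGCTGA in capitals (minus strand, GRCm38.p6, chr5:112252683-112252712, chr5:112252636-112252665 and chr5:112252578-112252607).
Cryba4 upstream a: catattccctagTGCTGAccctgggcaagc
Cryba4 upstream b: taaaggcagagcTGCTGAcatgtccactct
Cryba4 upstream c: ctatctctggctTGCTGAgtctgtgtttgt
The RefSeq gene records of Cttnbp2 and Cryba4 extend further upstream than the start used here. Their CpG counts and motif distances therefore hold for this start only, and the windows may include transcribed bases. No motif match in these windows was set against binding data.

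The authors' deposited table gave 1 fitted level per group in normalised counts, which are reads scaled to a common library size, with a log2 fold change of H3K36M over control and its standard error (SE). The files used here held no values of single samples, so no level per sample and no overlap of the groups can be shown, and the SE is the only trace of the spread between samples. Library size factors, recovered from genes read once in a single library, ran between 0.645 and 1.77 in H3K36M and between 0.728 and 1.23 in control. Of 17449 tested genes, the authors' adjusted p was below 0.05 with a lower level in H3K36M for 277 (1.59%) and with a higher level for 322 (1.85%), a total of 599 (3.43%), with the Wald test of DESeq2 in the authors' deposited table. Over all tested genes the log2 fold change had a median of 0.07. The 16 markers of stratified tongue epithelium all averaged 3184 normalised counts or more over the samples, and of these Krt76, Krt24 and Krt14 were lower. Markers of other tissues were present as well. The 16 skeletal muscle markers summed to 33092 normalised counts in H3K36M and 117231 in control, the 12 salivary markers to 20553 in H3K36M and 573 in control, and the 8 neutrophil markers to 2356 in H3K36M and 453 in control, all from the authors' deposited table. Of those tested, 4 of 7 salivary and 2 of 8 neutrophil markers were higher, and none of 16 muscle, 13 nerve and 8 fibroblast markers was called (authors' DESeq2, 0 at unadjusted p below 0.05). The called salivary markers were Tff2, Muc19, Aqp5 and Bpifa1. The called neutrophil markers were S100a8, with 792 normalised counts in H3K36M, and S100a9, with 911, which made up most of the neutrophil sum there. Il1r2, with 544 in H3K36M and 308 in control, made up most of that in control and was not called. Muc5b, set aside by the authors' tool as an outlier, with 12880 normalised counts, and Tff2, with 6933, made up most of the salivary sum in H3K36M, and Amy1, with 91.4 in H3K36M and 515 in control (log2 fold change −2.49, not called), most of that in control, in the authors' deposited table. None of the muscle, salivary and neutrophil markers was at 0 in the mean, and the part of these tissues in the results that follow was not tested. In bulk tissue, fewer cells of a type and less RNA per cell cannot be told apart.

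2300003K06Rik was read only rarely in H3K36M. Its fitted level in the authors' deposited table was 1.15 normalised counts in H3K36M and 241 in control. That is 0.478% of the control level, a log2 fold change of −7.71 (SE 0.86, 95% interval −9.39 to −6.03) in the authors' deposited table. As approximate reads, the levels correspond to 7 in the 6 H3K36M libraries and 1722 in the 7 control libraries, a ratio of control over H3K36M of 220 with an exact counting interval of 107 to 548. The interval from the SE, which also holds the spread between samples, ran from 65.2-fold to 672-fold lower. Among the 7570 tested genes with a log2 fold change below 0, it had the smallest p in the authors' deposited table and the third-lowest fold change.

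Cttnbp2 was lower but still well covered in H3K36M. Its fitted level in the authors' deposited table was 50.1 normalised counts in H3K36M and 269 in control, or 18.6% of the control level. The log2 fold change there was −2.43 (SE 0.28, 95% interval −2.98 to −1.88), which is 5.38-fold lower (3.68 to 7.88), and about 319 reads in H3K36M stood against 1922 in control. Its place by fold change was 124 of 7570 in the authors' deposited table, but its place by p was 3.

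Cryba4 lay between them in fold. The authors' deposited table gave it 13.7 normalised counts in H3K36M and 115 in control, 11.9% of the control level. Its log2 fold change there was −3.07 (SE 0.61, 95% interval −4.27 to −1.88), or 8.42-fold lower (3.68 to 19.3), with about 87 reads in H3K36M against 821 in control. By fold change it stood at 52 of 7570 and by p at 61 in the authors' deposited table. All 3 genes were thus past the authors' threshold in the direction that 1.59% of tested genes took, which follows from how they were chosen and is not a result.

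Levels of different genes can be set side by side only per length. Per kb of exon sequence, 2300003K06Rik stood at 0.912 normalised counts in H3K36M and 191 in control, computed from the authors' deposited table. On the same per-length scale Cryba4 stood at 16.3 in H3K36M and 137 in control, and Cttnbp2, with 8829 exon bases, at 5.67 in H3K36M and 30.5 in control. The order in control was 2300003K06Rik, Cryba4, Cttnbp2, and in H3K36M it was Cryba4, Cttnbp2, 2300003K06Rik. No spread per sample is at hand to say which neighbours in these orders differ.

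**Figure D1:**
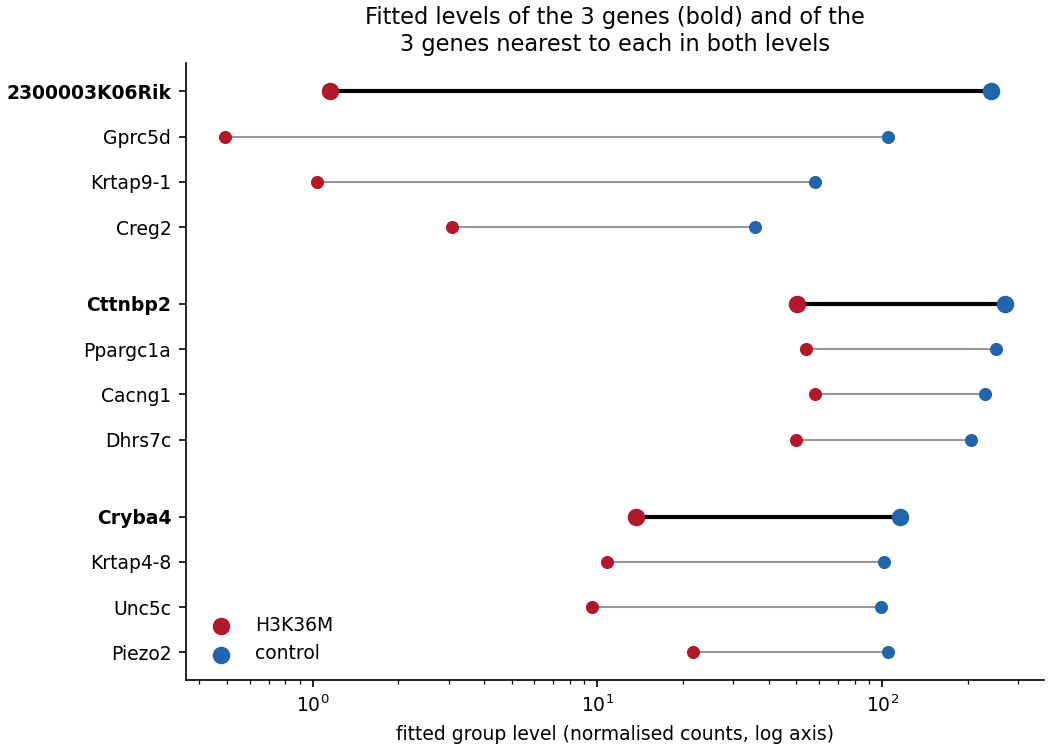
Fitted group levels in normalised counts (log axis) of 2300003K06Rik, Cttnbp2 and Cryba4 (large points, bold names) and of the 3 tested genes nearest to each in both levels, with clone and predicted names left out; red points are H3K36M, blue points control, and a line joins the levels of 1 gene. 2300003K06Rik has the widest gap of the 3, with 1.15 in H3K36M and 241 in control, and the points carry no error bars because each is 1 fitted value per group.

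The genes closest to each in both fitted levels differed in kind, as the plot of fitted levels shows. Nearest to 2300003K06Rik were Gprc5d, a receptor of keratinising cells, with 0.491 normalised counts in H3K36M and 105 in control in the authors' deposited table, and the keratin-associated gene Krtap9-1, with 1.04 in H3K36M and 58.2 in control. Creg2 came next among genes without clone or predicted names, which were left out of this ranking, at a distance of 3.10 on the log2 scale. Nearest to Cryba4 were Krtap4-8, with a log2 fold change of −3.23 (SE 0.68), Unc5c, a netrin receptor (−3.37, SE 0.71), and Piezo2, a mechanically gated channel (−2.28, SE 0.28), all from the authors' deposited table and at distances of 0.392 to 0.678. Nearest to Cttnbp2 were Ppargc1a, a coactivator of mitochondrial genes, Cacng1, a calcium channel subunit of skeletal muscle, and Dhrs7c, an enzyme of the muscle sarcoplasmic reticulum. Ppargc1a had 54.1 normalised counts in H3K36M and 252 in control in the authors' deposited table, almost the levels of Cttnbp2. Yet in the authors' deposited table none of these 3 was called (adjusted p 0.375 to 0.614), with an SE of 1.01 to 1.11 beside 0.28 for Cttnbp2. The adjusted p by which Cttnbp2 was chosen depends on that SE, so this contrast only describes the choice.

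An implied spread between samples can be computed from each SE. It is the spread that the fitted DESeq2 model would need to give that SE, and was not measured from single samples. The SE also enters the adjusted p by which the 3 genes were chosen, so these values are a description and support nothing. With 6 H3K36M and 7 control samples, the SE of Cttnbp2 in the authors' deposited table corresponds to a coefficient of variation between samples of 0.331, below the median of 0.468 over 4168 tested genes within a factor of 2 of its mean. For Cryba4 it was 0.731 (median of 3074 similar genes 0.602) and for 2300003K06Rik 0.822 (median of 3860 similar genes 0.500). The share of peers with a lower implied coefficient was 28.1% for Cttnbp2, 59.9% for Cryba4 and 73.5% for 2300003K06Rik. In the authors' deposited table the 16 markers of skeletal muscle had log2 fold changes with a median of −1.78, in the same direction as Cttnbp2. Each had an SE of at least 0.958, and 0 were called (0 at unadjusted p below 0.05, authors' DESeq2). Whether muscle content has a part in the level of Cttnbp2 was not tested. For the genes nearest to Cttnbp2 the implied coefficient was 1.26 to 1.38, inside the 1.19 to 1.79 of the muscle markers. The coefficient assumes that every group shares 1 dispersion, and it moved little when the recovered size factors replaced equal ones (0.330 for Cttnbp2, 0.729 for Cryba4, 0.822 for 2300003K06Rik).

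**Figure D2:**
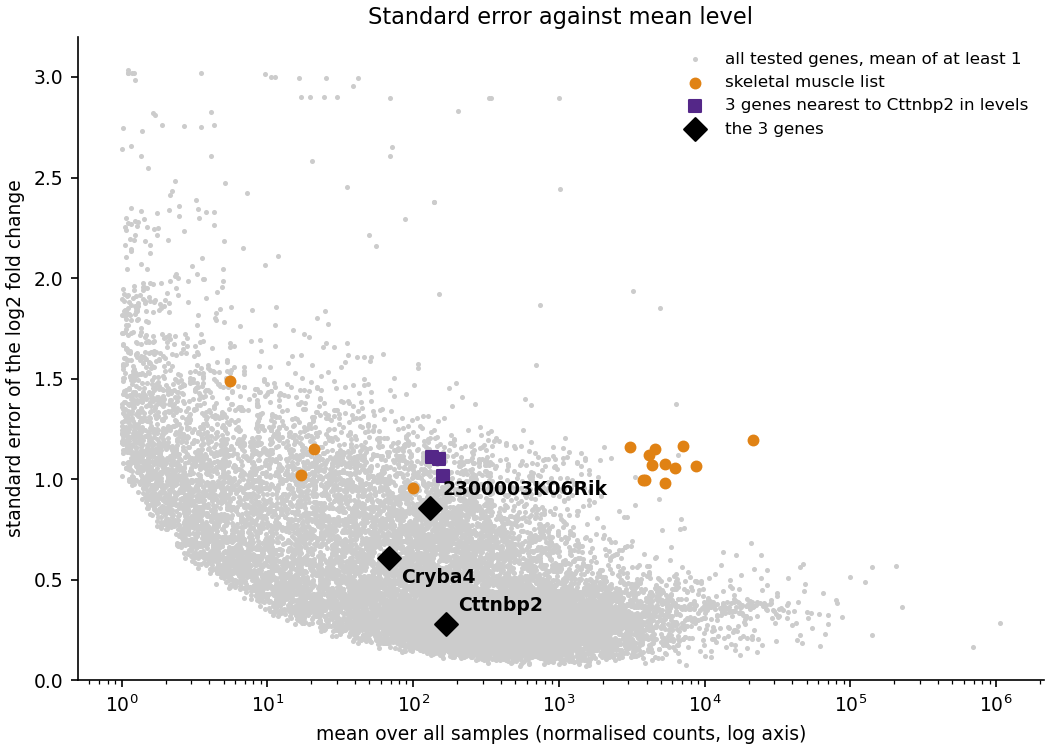
Standard error of the log2 fold change against the mean over all samples in normalised counts (log axis) for tested genes with a mean of at least 1 (grey), the skeletal muscle list (orange), the 3 genes nearest to Cttnbp2 in levels (purple squares) and 2300003K06Rik, Cttnbp2 and Cryba4 (black diamonds). Cttnbp2 sits in the lower part of the grey cloud at an SE of 0.28, while the 3 genes with nearly its levels sit at 1.01 to 1.11. The muscle genes range from 0.958 to 1.49.

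Around 2300003K06Rik, lower levels extended over much of the keratin-associated and type I keratin cluster. Of 56 tested genes that start within 500 kb of its start, 34 were lower and 1 higher (authors' DESeq2, adjusted p below 0.05, authors' deposited table), against 1.59% and 1.85% of all tested genes, and their median log2 fold change was −2.00. All 10 tested genes within 50 kb were lower, with a median of −4.76 and a range of −5.81 to −3.32. Between 50 and 200 kb, 8 of 11 were lower with a median of −2.82, and between 200 and 500 kb, 16 of 35 were lower and 1 higher with a median of −1.61. The log2 fold change of 2300003K06Rik itself, −7.71, lay below those of all 56. Its fold had fixed its choice, so this order is not tested. Against a log2 fold change of more than 1 in size, 8 of the neighbours were lower and 1 higher.

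The nearest genes with reads on each side were Gm11564, 22.4 kb downstream in the orientation of the gene, and Krtap4-16, 13.5 kb upstream. Gm11564 had 10.7 normalised counts in H3K36M and 431 in control, a log2 fold change of −5.34 (SE 0.69, adjusted p = 9.42e-12), in the authors' deposited table. Krtap4-16 had 76.4 in H3K36M and 763 in control, a log2 fold change of −3.32 (SE 0.66, adjusted p = 6.18e-05), in the authors' deposited table. Krtap9-1 had the lowest value of the neighbours at −5.81 (SE 0.90), followed by Gm11554 at −5.58 (SE 0.72), in the authors' deposited table. The other called genes within 50 kb were Gm11596 (−4.83), Gm11569 (−4.83), Krtap4-13 (−4.70), Gm11567 (−4.41), Gm11559 (−3.91) and Gm11568 (−3.77), as log2 fold changes in the authors' deposited table. None of the 10 was near zero in control, where their fitted levels ran from 58.2 (Krtap9-1) to 1495 (Gm11567) normalised counts.

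Farther out, the Krtap4 genes Krtap4-9, Krtap4-8, Krtap4-6, Krtap4-7, Krtap4-2 and Krtap4-1 fell, with log2 fold changes from −3.70 (Krtap4-9) to −2.47 (Krtap4-6) in the authors' deposited table, together with Gm11595, Gm11563, Gm11562, Gm11938 and Krtap2-4. Genes of the Krtap1 and Krtap3 families followed beyond Krtap2-4. Krtap1-4 fell by 2.72 (SE 0.61) and Krtap1-3 by 2.39 (SE 0.57), on the log2 scale, while Krtap3-1, Krtap3-2 and Krtap3-3 were lower too, Krtap3-2 by least with −1.84 (SE 0.49), in the authors' deposited table. On the other side lay the type I keratins. The hard keratins Krt33a, Krt33b, Krt34, Krt31, Krt35 and Krt36 were lower, with 23605 normalised counts in H3K36M and 74255 in control for Krt36, the most abundant, in the authors' deposited table. Beyond them lay soft keratins. Krt13, the main keratin of oral epithelium, stood at −0.30 (SE 0.28), Krt15 at 0.24 (SE 0.20) and Krt16 at −0.75 (SE 0.28) in the authors' deposited table, none of them called and all named after their values were seen. Krt14 fell by 0.87 (SE 0.26), while Krt19, a keratin of ducts, was the only called gene of the 56 with a higher level, at 3.47 (SE 0.39) in the authors' deposited table. Krt10, a keratin of cornifying epidermis, lies 449 kb away on the side of the Krtap genes and fell by 1.31 (SE 0.36) in the authors' deposited table.

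**Figure D3:**
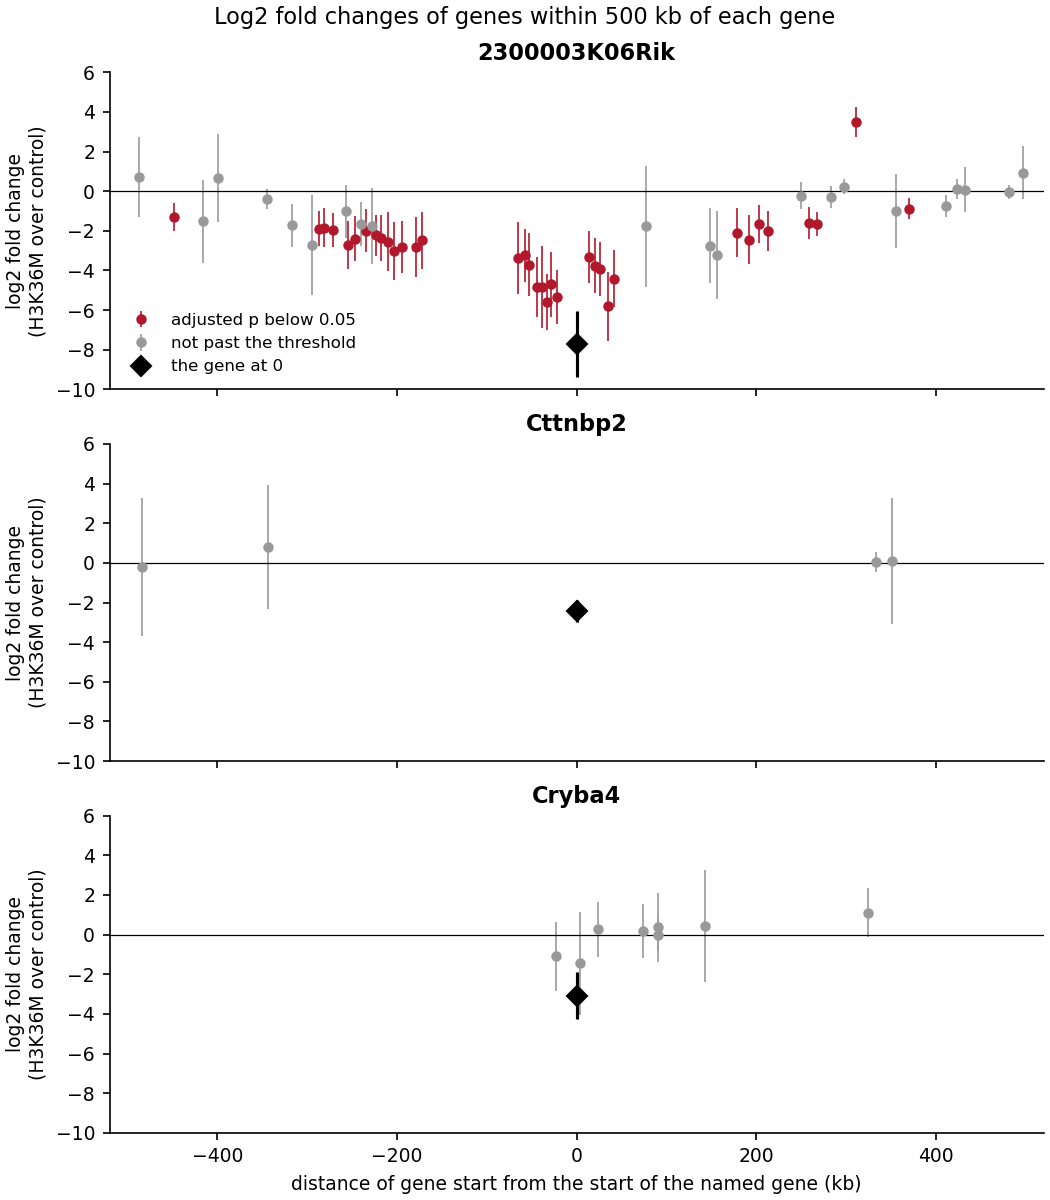
Log2 fold change of H3K36M over control, with 95% intervals, for tested genes within 500 kb of 2300003K06Rik (top), Cttnbp2 (middle) and Cryba4 (bottom), by the distance in kb of each gene start from the start of the named gene (black diamond at 0). Red points have an adjusted p below 0.05; they crowd around 2300003K06Rik, where the 10 nearest lie between −5.81 and −3.32, and there are none around Cttnbp2 or Cryba4.

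Across the 48 neighbours whose mean reached 10 normalised counts, Spearman's rho between distance and log2 fold change was 0.907. Within 200 to 500 kb it was 0.736 over 30 genes, and within 50 kb it was −0.503 over 10. These genes share libraries, and near copies share reads, so the values describe the cluster only. The sequence of the transcripts bears on this. None of the 1191 windows of 75 bases, the read length, in 2300003K06Rik occurred in a transcript of another gene of GENCODE M21, and the same held for the 8965 windows of Cttnbp2 and the 762 of Cryba4. Among the neighbours of 2300003K06Rik within 50 kb, 83.1% of the windows of Gm11569, 81.5% of those of Gm11554 and 70.9% of those of Krtap4-13 occurred in another gene. The share was 42.7% for Gm11559, 39.0% for Gm11567, 31.0% for Krtap9-1 and 30.8% for Gm11568. For Gm11564 it was 21.7% and for Gm11596 2.19%. The levels of these genes are uncertain to that extent. Krtap4-16 shared 0 of 864 windows. Whether shared reads have a part in the lower levels of the neighbours was not tested.

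Genes with the promoter element GGGTATAAAAG lay both near 2300003K06Rik and elsewhere. Leaving out 2300003K06Rik, 17 genes with the element were tested. The 10 of them within 500 kb of 2300003K06Rik were all lower, where 1.59% of all tested genes were. Their median log2 fold change was −4.06 (−5.58 to −2.47) in the authors' deposited table. The element was chosen with these fold changes known. The median of the 7 elsewhere was 0.25. None of these 7 passed the threshold (authors' DESeq2, 1 at unadjusted p below 0.05), near the 3.43% of all tested genes called. The 1 gene at unadjusted p below 0.05 was Krtap21-1, named after its value was seen. It had 86.2 normalised counts in H3K36M and 18.9 in control in the authors' deposited table (authors' DESeq2, adjusted p = 0.0508). In the same 500 kb, 30 genes with a mean of at least 10 had a searched promoter without the element. Their median log2 fold change was −1.86, and 20 of them were lower. Genes whose promoter was not among those searched were left out of this count. The 10 genes near 2300003K06Rik share both the element and a place in the cluster, and a part of either was not tested. Of the 7 elsewhere, Plekha4, Steap4 and Tmem79 held the element only on the other strand. Ppp1r10 held it 245 bases before its start, against 40 in 2300003K06Rik.

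Keratin-associated genes of the whole genome, listed by symbols that begin with Krtap, included calls in both directions. Lower genes of the cluster under Gm names, such as Gm11554 and Gm11564, are not in this list, nor is 2300003K06Rik. As called in the authors' deposited table, 20 of 32 tested were lower and 3 were higher, with a median log2 fold change of −2.31, beside 1.59% and 1.85% of all tested genes. The 3 higher ones were Krtap6-5, Krtap6-1 and Krtap6-2, glycine- and tyrosine-rich members, the last with 85.6 normalised counts in H3K36M and 17.9 in control in the authors' deposited table. Of 15 hard keratin genes, 8 were lower and 0 higher, with a median of −1.61. These include Krt83, a hard keratin of type II encoded on another chromosome, which fell by 1.58 (SE 0.34) in the authors' deposited table. Several of these genes also lie within the 500 kb window, so the counts overlap. Against a log2 fold change of more than 1 in size, 2 keratin-associated genes were lower and 2 higher.

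Few genes lie near Cttnbp2. No gene of the table starts within 250 kb of its start, and of 4 tested genes within 500 kb none passed the threshold (authors' DESeq2, 0 at unadjusted p below 0.05), a count too small to read against the 3.43% of all tested genes. Lsm8, an RNA-binding protein gene 334 kb away, had 377 normalised counts in H3K36M and 366 in control, a log2 fold change of 0.04 (SE 0.26), in the authors' deposited table. On the other side, Cftr, a chloride channel gene 344 kb away, had a mean of only 1.72 normalised counts and an SE of 1.59 there.

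The known partners of CTTNBP2 gave a count near that of all genes. Of 22 tested genes of its paralog, cortactin and the striatin-phosphatase complex, 0 were lower and 0 higher, beside 3.43% of all tested genes called in either direction, with a median log2 fold change of 0.09 (authors' DESeq2, authors' deposited table). At an unadjusted p below 0.05 there was 1, Sike1, a subunit of that complex, at −0.57. The most abundant were Ppp2ca, the catalytic subunit of the phosphatase, at −0.01 (SE 0.22), and Mob4 at 0.14 (SE 0.44) in the authors' deposited table. Cortactin itself (Cttn) stood at 0.17 and the paralog Cttnbp2nl at −0.07, both named after their values were seen. A list of cortactin network genes held branched-actin genes and others such as Filip1, Kcna2 and Shank3. Of its 23 tested genes, 0 were lower and 0 higher (0 at unadjusted p below 0.05, authors' DESeq2). This count was also near the share of all genes, and the list median was 0.08. Its most abundant members, Actr2 and Arpc2 of the actin-nucleating ARP complex, stood at 0.01 (SE 0.38) and 0.15 (SE 0.21) in the authors' deposited table. A difference as large as that of Cttnbp2 lies outside the 95% intervals of Actr2 and Arpc2.

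Of 8 tested genes within 500 kb of Cryba4, none passed the threshold (authors' DESeq2, 0 at unadjusted p below 0.05), a count near the 3.43% of all tested genes. The nearest with reads on each side were Crybb1, the lens crystallin beta-B1, which starts 3.30 kb away on the opposite strand, and Miat, a long noncoding RNA 23.1 kb away. Crybb1 had 0.740 normalised counts in H3K36M and 2.03 in control, a log2 fold change of −1.45 (SE 1.33), in the authors' deposited table. Miat had 56.0 in H3K36M and 120 in control, a log2 fold change of −1.10 (SE 0.90), in the authors' deposited table. Both point the same way as Cryba4, with intervals that include 0.

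Of 7 other beta and gamma crystallin genes tested, 0 were lower and 0 higher (authors' DESeq2, authors' deposited table), near the 3.43% of all tested genes called, with a median log2 fold change of 0.02. At an unadjusted p below 0.05 there was 1, Cryba2, with 9.36 normalised counts in H3K36M and 22.6 in control (log2 fold change −1.27, SE 0.61, adjusted p = 0.439) in the authors' deposited table. Crybg1 and Crybg3, relatives expressed outside the lens, had the highest means and log2 fold changes of 0.01 (SE 0.17) and 0.02 (SE 0.35) there. No reads were present for 5 genes of the family. Among 7 other crystallin genes, most of them enzymes or stress proteins, 1 was higher, where 1.85% of all tested genes were. This was Cryzl2, with 131 normalised counts in H3K36M and 13.4 in control, a log2 fold change of 3.29 (SE 0.38) in the authors' deposited table.

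Among genes known from the lens, 2 of 10 tested were lower, against 1.59% of all tested genes, and 0 higher, with a median log2 fold change of 0.26. These were Gja3, a gap-junction connexin of lens fibres, with 2.47 normalised counts in H3K36M and 11.9 in control (log2 fold change −2.27, SE 0.63), and Maf, the transcription factor that drives lens crystallins, with 589 in H3K36M and 1454 in control (−1.30, SE 0.27, adjusted p = 0.000112), in the authors' deposited table. The lens regulators Pax6 and Prox1 stood at 0.32 (SE 0.90) and 0.25 (SE 0.80) in the authors' deposited table, neither of them called, and both were named after their values were seen. Of the 18 listed lens genes, 13 had reads and 5 had 0. Mip, Lim2 and Foxe3 were among those at 0, while the lens-fibre gene Bfsp1 had 9.10 normalised counts in H3K36M and 6.23 in control in the authors' deposited table, not called. These 4 were named after their values were seen.

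**Figure D4:**
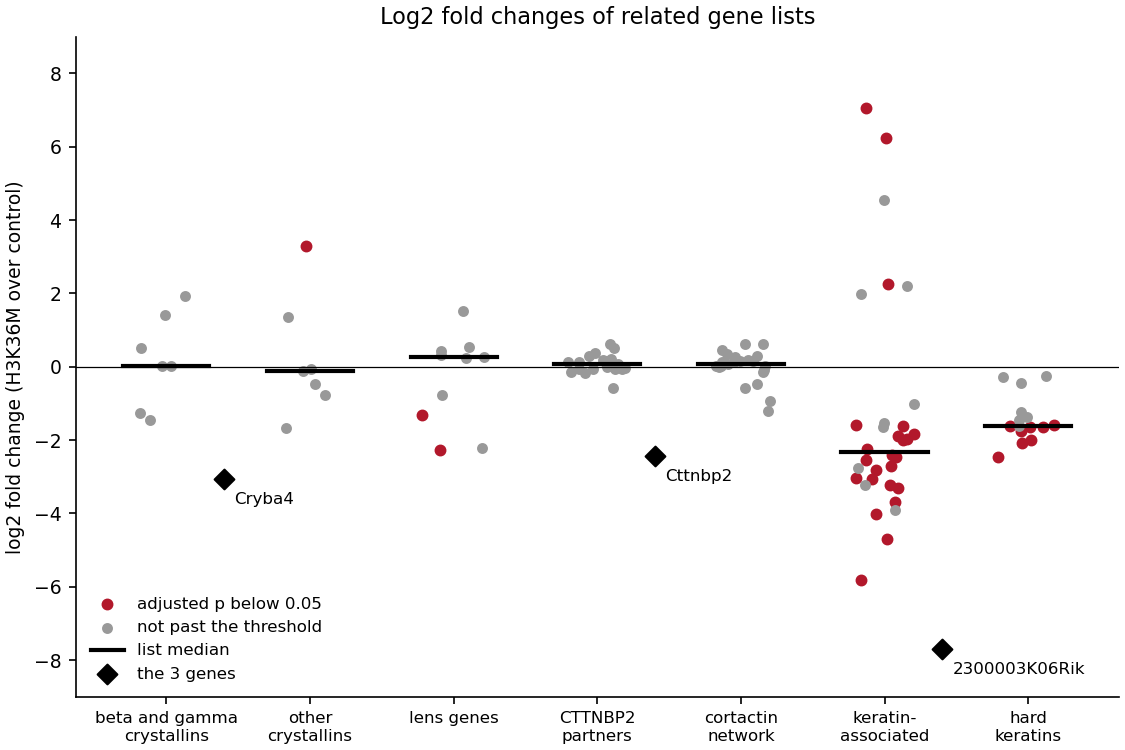
Log2 fold change of H3K36M over control of each tested gene in 7 lists, with the median of each list as a bar and Cryba4, Cttnbp2 and 2300003K06Rik as black diamonds to the right of the lists they relate to; red points have an adjusted p below 0.05. The crystallin, partner and cortactin lists centre between −0.11 and 0.09, away from Cryba4 and Cttnbp2. The keratin-associated list, which holds only symbols that begin with Krtap, centres at −2.31, above 2300003K06Rik.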

How the data were processed

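PolyA RNA of 13 tongue epithelium samples was read as single ends of 75 bases from directional libraries, per the labels' protocols. STAR, DESeq2 and the build GRCm38 (mm10) are named in the submitters' processing notes. Their versions are not given in the sources used here, nor are the read counter and the annotation. The mean level and both group levels are normalised counts, a signal scale that comes from the authors' DESeq2 run, per the file headers. The log2 fold change and its SE (log2 scale), the Wald statistic (a score), and the p-value and adjusted p-value were deposited by the authors as well. No count test could be fitted, as the files used here hold no values of single samples, so the authors' adjusted p below 0.05 was the call. Positive fold changes mean higher in H3K36M: the sign followed the group levels in all 19909 genes with reads, and 13 times the mean equalled 6 times the H3K36M level plus 7 times the control level within a relative tolerance of 1e-06.

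Computed here, in Python 3.11.15 with numpy 2.4.6, pandas 2.3.3, scipy 1.17.1 and matplotlib 3.10.9, were the 95% intervals (from the SE), the dispersion that each SE implies, adjusted p-values under each alternative (Benjamini-Hochberg), gene distances (GENCODE M21, GRCm38), shared 75-base windows and promoter motifs (RefSeq, GRCm38.p6, 250 upstream bases; all 3 genes matched by symbol). The dispersion step was tested on simulated data. Of 24972 genes, 17449 had an adjusted p, 7348 had too low a mean and 175 were set aside as outliers. In 26 rows a date stood for the gene name. The mean total per library was 15769800 normalised counts. Approximate reads are a group level times the summed size factors (6.38 in H3K36M, 7.14 in control), and counting intervals cover counting error only. The p-values set each fold change against its SE over samples. The labels tie no sample to a named animal, so some samples may be technical replicates. The 2 tables of gene ontology terms were not used here.

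The 3 genes and the 13 gene lists were chosen with earlier results of these data known. Named were these genes, the 3 tested genes nearest to each in both log2 levels (clone, predicted and date-like names left out), from each list up to 4 called genes with the smallest adjusted p or, with none called, the 2 of highest mean, and of the genes within 500 kb the nearest with reads on each side and every called one. Genes outside this rule are marked as such, or stand beside a count or sum they make up. The genes that the rule picks from the muscle, nerve and fibroblast marker lists, where none was called, are not named.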

Additional observations from a re-analysis of the deposited data

How the results depend on the processing

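The 3 genes had a lower level in H3K36M under every alternative run. The alternatives reuse the deposited fold changes, levels and statistics of genes chosen for their falls, so this direction could hardly change and is not a result. Of the recomputed values, 113 stayed close to those reported (for a count, within 1.5 times, many being 0 in both) and 16 moved. With a pseudocount of 1, the log2 fold change of 2300003K06Rik was −6.81. Tested against a log2 fold change of more than 1 in size, Cryba4 had an adjusted p of 0.102, against 3.21e-11 for 2300003K06Rik and 0.000169 for Cttnbp2. The same test left 8 lower neighbours of 2300003K06Rik, 2 lower and 2 higher keratin-associated genes, 0 lower lens genes, and 27 lower and 64 higher genes in the whole table. With the statistic centred and scaled, 374 genes were higher and 418 lower, against 322 higher and 277 lower as deposited, with 1 lower CTTNBP2 partner and 5 higher keratin-associated genes. At a threshold of 0.1 the last count was 5 as well. At a threshold of 0.01, 1 lens gene and 179 genes of the whole table were lower. With a mean of at least 50, 129 genes of the whole table were higher, 0 keratin-associated genes were higher and 1 lens gene was lower. Within 250 kb of 2300003K06Rik 0 genes were higher, since Krt19 lies outside. Other causes were not tested. No paired analysis was possible because the files used here hold no values of single samples. Leaving out each sample in turn was not run for the same reason. Depth limits 2300003K06Rik most, at about 7 reads in H3K36M.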
